A study of Rattus norvegicus with 26 samples.

Results

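Integrins, laminins, nidogens and cadherins are the genes through which brain cells hold on to basement membrane and to each other. They were taken as all genes of the platform annotation whose symbols begin with Itga, Itgb, Lama, Lamb, Lamc, Nid1, Nid2 or Cdh and a digit, leaving out Itgam and the Itgb1bp and Lamtor genes. That gave 53 genes of 14217 with 1 symbol, each read from its brightest probe set over the 26 arrays: 14 integrin α chains, 7 integrin β chains, 10 laminin chains, 4 nidogen genes and 16 cadherins. The other two, Itgb3bp and Itgbl1, match by name but are not integrin chains: the product of Itgb3bp is a centromere protein and nuclear receptor coregulator. RNA came from primary cultures of the cerebral cortex of rat pups at postnatal day 1, and was hybridised to Affymetrix arrays. Neuronal, astrocyte, oligodendrocyte and microglial cultures had 4 biological replicates each, on 16 arrays. The labels give no strain, sex, culture protocol or purity, and all groups were untreated as far as they say. The other 10 arrays carried mixtures of these RNAs, 2 replicates of each of 5 proportions.

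Integrins are dimers of an α and a β chain that bind matrix outside the cell and link to actin inside it. Itgb1 pairs with many α chains, whereas Itgb2 is the β chain of leukocytes. Laminins are trimers of an α, a β and a γ chain that form the base of basement membranes, where nidogens tie them to collagen IV. Cadherins bind cadherins of the neighbouring cell and anchor to catenins. In the brain, astrocyte endfeet contact the basement membranes of vessels and meninges through laminin receptors.

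The cultures expressed the markers of their labels, and also some of other cells. The oligodendrocyte list (8 of 9 genes measured) averaged 9.58 to 11.10 per array on the log2 scale in oligodendrocyte cultures, but also 7.25 to 8.78 in microglial ones. The list of 9 microglial and macrophage genes averaged 10.27 to 11.07 in microglial cultures and 7.92 to 9.15 in oligodendrocyte cultures. Neuronal cultures held astrocyte markers (7 genes, 7.55 to 10.05, against 10.64 to 11.96 in astrocyte cultures). Oligodendrocyte replicate 1 averaged 9.33 on this list, against 6.80 to 7.58 on the other oligodendrocyte arrays. The part of this in the spread of oligodendrocyte values was not tested. Astrocyte replicate 4 stood apart: its list of fibroblast and meningeal genes averaged 8.76, against 6.46 to 6.53 in the other astrocyte arrays, through its 3 collagen genes alone. Endothelial genes averaged 3.46 to 4.20 over all culture arrays. The 6 pericyte and smooth muscle genes averaged 7.80 to 8.90 on astrocyte arrays. They averaged 5.21 to 5.79 in neuronal, 4.93 to 5.99 in oligodendrocyte and 4.77 to 5.30 in microglial cultures. Pdgfrb, Acta2, Tagln and Cnn1 were the higher ones, while Rgs5 (3.69 to 3.93) and Des (4.19 to 4.54) were low on astrocyte arrays. The part of such cells in the astrocyte results was not tested. Microglia replicate 4 is described in the labels as a mixture but titled and typed as a microglial culture, and was kept as one. Array medians lay between 5.25 and 5.31, and values below 5.25 are called dim here; a fold against a dim mean is given as a lower bound. In bulk RNA of a culture, fewer cells of a type and less RNA per cell cannot be told apart.

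Of the 53 genes, 32 differed between the cultures, against 48.1% of all 14217 genes. The call needed a limma F test with a Benjamini-Hochberg adjusted p under 0.05 over 31042 probe sets and a log2 range of at least 1 between culture means. The share was 60.4% for the adhesion genes. Their median range was 1.78 log2 units, against 0.96 for all genes. Among the 32, 14 were highest in astrocyte, 7 in microglial, 6 in oligodendrocyte and 5 in neuronal cultures. This split was not counted over all genes that differed, and some leads were narrow. Microglial means of Itgb2 (10.41) and Itgav (8.13) stood beside 10.31 and 8.03 in oligodendrocytes. That of Itgb3bp (8.21) stood beside 8.19 in astrocytes. Those highest in neurons were 4 cadherins and Lamb1. Those highest in microglia were 6 integrin chains and Itgb3bp. Those highest in astrocytes were 4 laminin chains, 5 integrin chains, 3 cadherins, Nid1 and Nid2-ps16, and those highest in oligodendrocytes were Cdh11, Cdh20, Itgal, Itgax, Lama4 and Nid2. The heat map of the 32 genes shows these blocks, and shows astrocyte replicate 4 departing from its group in several rows.

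**Figure D1:**
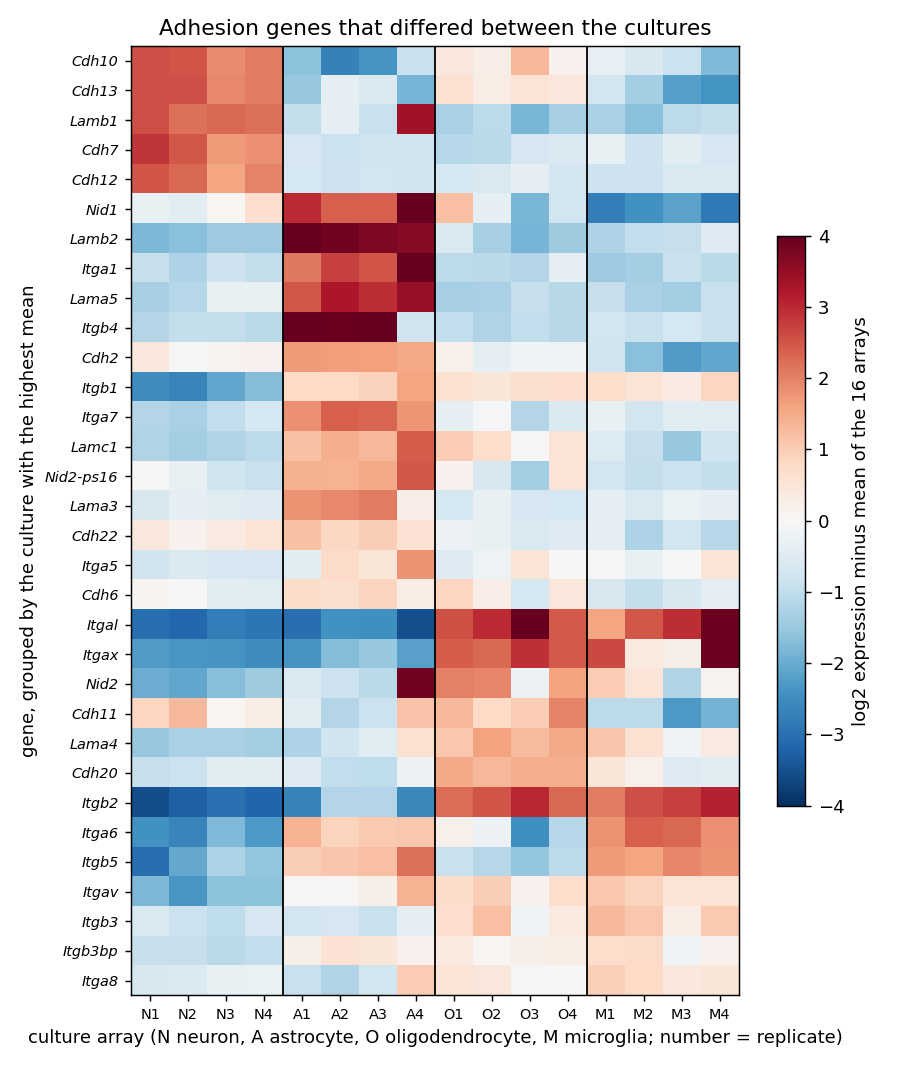
Log2 expression of the 32 genes that differed between cultures (rows), as the difference from each gene's mean over the 16 culture arrays (columns; colours are clipped at 4 log2 units). Genes are grouped by the culture with the highest mean. Lamb2 is high on all 4 astrocyte arrays, and Itgb4 is high on all but astrocyte replicate 4.

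Promoter windows of 300 bases (250 before to 50 after the start, RefSeq, GRCr8) were at hand for 35 of the 53 genes. They held a median of 13 CG dinucleotides, counted on 1 strand, against 7 over 33469 windows. Those shown are Itgb1, lower in neurons than in each other culture, Itgax, dim in neuronal and astrocyte cultures, and Cdh12, dim in all but neuronal cultures. Capitals mark CG. The start of the Itgax and of the Cdh12 window lies inside the annotated gene.
Itgb1 (GRCr8 chr19:73602027-73602326, + strand): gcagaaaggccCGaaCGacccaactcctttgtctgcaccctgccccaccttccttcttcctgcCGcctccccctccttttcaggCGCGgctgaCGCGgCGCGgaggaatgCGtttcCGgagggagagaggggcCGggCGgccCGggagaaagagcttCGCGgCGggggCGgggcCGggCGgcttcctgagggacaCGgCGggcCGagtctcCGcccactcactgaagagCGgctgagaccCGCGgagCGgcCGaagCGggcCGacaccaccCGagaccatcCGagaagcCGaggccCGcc
Itgax (GRCr8 chr1:192149799-192150098, + strand): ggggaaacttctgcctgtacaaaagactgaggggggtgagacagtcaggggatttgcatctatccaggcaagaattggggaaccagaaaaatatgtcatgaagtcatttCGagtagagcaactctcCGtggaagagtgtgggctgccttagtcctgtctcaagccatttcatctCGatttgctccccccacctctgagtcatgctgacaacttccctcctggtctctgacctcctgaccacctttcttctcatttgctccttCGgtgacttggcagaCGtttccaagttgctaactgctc
Cdh12 (GRCr8 chr2:72886282-72886581, + strand): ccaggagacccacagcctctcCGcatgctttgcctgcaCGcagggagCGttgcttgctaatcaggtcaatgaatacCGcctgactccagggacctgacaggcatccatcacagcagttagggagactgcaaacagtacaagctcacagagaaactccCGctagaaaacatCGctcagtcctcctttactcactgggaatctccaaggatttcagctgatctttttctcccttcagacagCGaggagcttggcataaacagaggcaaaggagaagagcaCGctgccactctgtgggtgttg
The Itgb1 window holds 35 CG, more than 93.9% of all windows. The Itgax window holds 5 and the Cdh12 window 8, more than 38.0% and 52.4% of windows. The count is a description of these letters and says nothing of what sets the level.

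The other 21 genes were not called. For 18 of them every culture mean lay below 5.25, among them E-cadherin Cdh1, P-cadherin Cdh3, the hair cell cadherin Cdh23, Lama1, Lama2, Lamb3, Lamc3, Itga9, Itgb6, Itgb7 and Itgad. The rest of these dim genes were Cdh8, Cdh15, Cdh16, Cdh17, Itga11, Itgbl1 and the noncoding Nid2l2. None of the 32 called genes was that dim in every culture. Among the 21, 9 had an adjusted p under 0.05 with a range of at most 0.98. Of these, Itga3, a laminin receptor chain, averaged 7.56 in neuronal, 7.63 in astrocyte, 6.65 in oligodendrocyte and 6.78 in microglial cultures. Itga2b and Itgae, chains of platelet and of mucosal T cell integrins, averaged 5.14 to 6.13 and 5.77 to 6.23 over the cultures.

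Among laminin chains, 4 of 10, Lamb2, Lama5, Lama3 and Lamc1, were higher in astrocyte cultures than in each other culture. Over the 53 genes this held for 10, or 18.9%, against 5.91% of all genes. It required the 3 pairwise limma tests each to pass, with a log2 difference of at least 1. Against the mean of the other 3 cultures 14 genes were higher in astrocytes (26.4%, against 11.6% of all genes). Those lower were 7 (13.2%, against 8.82%): Cdh7, Cdh10, Cdh12, Cdh13, Itgb2, Itgal and Itgax. Cdh7 and Cdh12 were also dim in oligodendrocyte (3.68 and 3.19) and microglial cultures (3.98 and 3.08). Both of these calls were lost after quantile normalization, with array weights and without neuron replicate 1. The difference of astrocytes from the mean of the other 3 cultures had a median of 0.18 over the 53 genes, against -0.01 over all genes.

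Lamb2, the β chain typical of mature basement membranes at vessels and synapses, read 10.19, 10.07, 9.93 and 9.85 in astrocyte cultures. Lamb2 stood at 4.40, 4.53, 4.74 and 4.76 in neuronal, 5.62, 4.88, 4.34 and 4.78 in oligodendrocyte and 4.96, 5.23, 5.27 and 5.69 in microglial cultures. The astrocyte arrays lay above all others with no overlap, and the mean was at least 33.8-fold above that of the other cultures (log2 difference and SE 5.08 ± 0.18, adjusted p = 2.11e-11). Lama5, the α chain of many vascular and epithelial laminins, read 7.85, 8.59, 8.31 and 8.83 in astrocyte cultures. Lama5 stood at 4.03, 4.22, 5.07 and 5.06 in neuronal, 4.02, 4.06, 4.44 and 4.24 in oligodendrocyte and 4.42, 4.07, 3.97 and 4.47 in microglial cultures. Again the groups did not overlap, and the difference was 4.06 ± 0.20, adjusted p = 6.84e-10. Within the neuronal group Lama5 was dim on every array, with replicates 3 and 4 above replicates 1 and 2; the same arrays had the higher astrocyte marker means, 10.05 and 9.75 against 7.55 and 8.57, whose part in the result was not tested.

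Lamc1, the γ chain shared by most laminins, averaged 9.33 ± 0.56 in astrocyte (SD, n = 4, as for all means here), 8.31 ± 0.41 in oligodendrocyte, 6.79 ± 0.42 in microglial and 6.52 ± 0.14 in neuronal cultures. Its rise over oligodendrocytes was small (1.02 ± 0.27, adjusted p = 0.00725), and without astrocyte replicate 4 it was 0.75 ± 0.23, under the minimum of 1. It also missed the call without oligodendrocyte replicate 3. Lama3, the α chain of epithelial laminin, averaged 6.73 ± 0.85 in astrocyte cultures, against 4.71 in neuronal, 4.62 in oligodendrocyte and 4.82 in microglial ones (2.01 ± 0.24, adjusted p = 5.29e-06 against their mean). Lama3 was 5.47 in astrocyte replicate 4 and 7.0 to 7.31 in the other 3.

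Lamb1, the alternative β chain, was the only laminin chain called higher than the mean of the others in neuronal cultures. It read 7.92, 7.55, 7.64 and 7.55 there. Lamb1 stood at 4.40, 4.95, 4.45 and 8.71 in astrocyte, 4.03, 4.29, 3.52 and 4.0 in oligodendrocyte and 4.04, 3.68, 4.28 and 4.40 in microglial cultures. Neuronal arrays exceeded all others except astrocyte replicate 4, which was the highest array of the 16. Against the mean of the other cultures Lamb1 was at least 8.59-fold higher in neurons (3.10 ± 0.55, adjusted p = 0.000195). The neuron minus astrocyte difference was 2.04 ± 0.68, adjusted p = 0.022, and 3.07 ± 0.20 (adjusted p = 1.02e-08) without astrocyte replicate 4. The call against each other culture was lost when neuron replicate 1 or astrocyte replicate 1, 2 or 3 was left out. So 3 of the 4 astrocyte cultures had Lamb2 high and Lamb1 dim, and replicate 4 had both high.

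Lama4, the α chain of endothelial and mesenchymal laminins, was the only laminin chain called higher in oligodendrocytes than the mean of the others (1.83 ± 0.26, adjusted p = 6.9e-05). It averaged 7.26 ± 0.24 in oligodendrocyte, 6.37 ± 0.53 in microglial, 5.40 ± 0.78 in astrocyte and 4.52 ± 0.11 in neuronal cultures. The difference between oligodendrocyte and microglial cultures just missed the test (0.88 ± 0.32, adjusted p = 0.0506).

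Nid1, which links laminin to collagen IV, read 9.47, 8.87, 8.85 and 10.53 in astrocyte cultures. Nid1 stood at 6.18, 6.03, 6.54 and 7.16 in neuronal, 7.69, 6.12, 4.66 and 5.70 in oligodendrocyte and 3.75, 4.06, 4.34 and 3.64 in microglial cultures. It was 15.4-fold higher in astrocytes than the mean of the others (3.94 ± 0.42, adjusted p = 1.86e-06) and lowest in microglia (-3.37 ± 0.42, adjusted p = 9.69e-06), where every array was dim. A second Nid1 probe set read 6.23 to 6.66 in all cultures and did not show the difference. Nid2, its relative, read 6.89, 6.66, 6.42 and 11.34 in astrocyte cultures, with replicate 4 far above the rest. Nid2 stood at 5.51, 5.41, 5.79 and 6.06 in neuronal, 9.50, 9.45, 7.25 and 9.11 in oligodendrocyte and 8.49, 8.0, 6.30 and 7.63 in microglial cultures. The Nid2 F test had adjusted p = 0.0323; the gene was lower in neurons than the mean of the others (-2.39 ± 0.72, adjusted p = 0.011), and 7.25 in oligodendrocyte replicate 3 against 9.11 to 9.50 in the rest of that group. The F test call was lost without neuron replicate 1, 2, 3 or 4 and without oligodendrocyte replicate 1, 2 or 4. The pseudogene Nid2-ps16 was higher in astrocytes (2.27 ± 0.29, adjusted p = 1.12e-05); whether its probes also read Nid2 RNA was not tested.

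**Figure D2:**
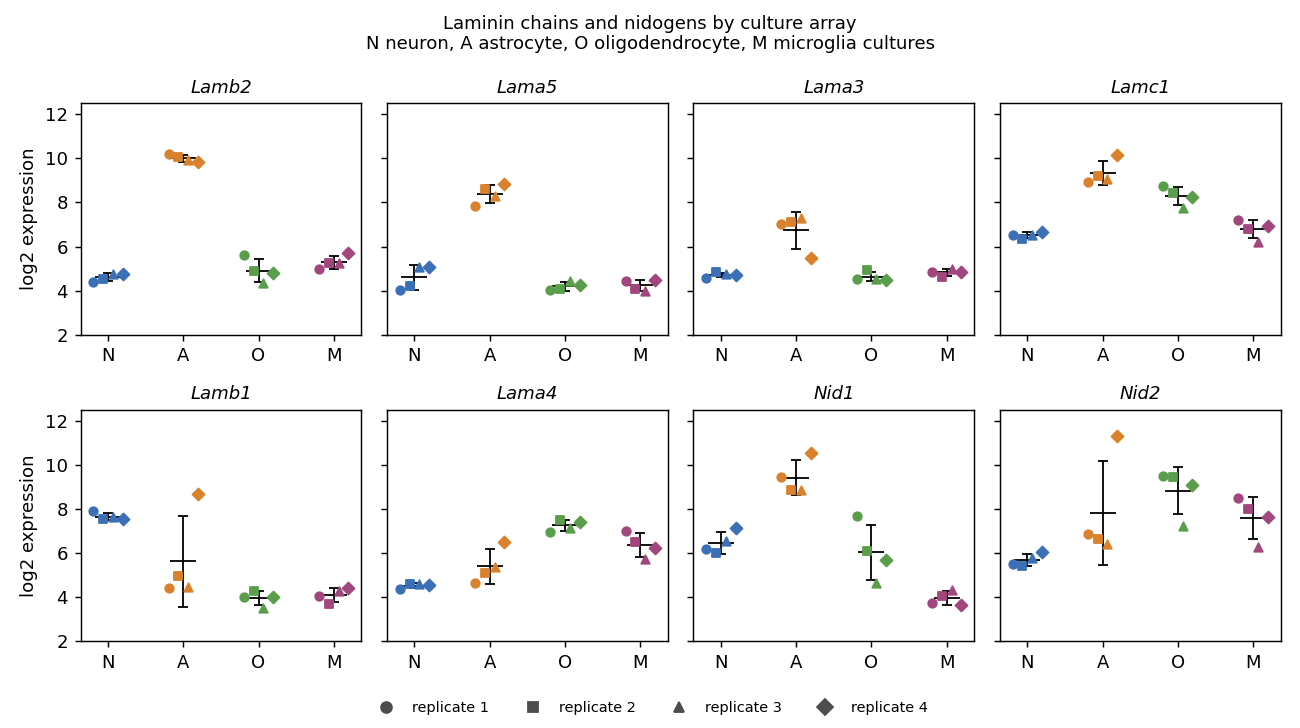
Log2 expression (vertical axis) of laminin chains and nidogens on each of the 16 culture arrays; points are arrays, with a marker shape for each replicate number, and bars show the mean and SD of 4. Among the 4 cultures Lamb2 and Lama5 are high in astrocytes alone, while Lamb1 and Nid2 are raised in astrocyte replicate 4 alone among the astrocyte arrays.

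In neuronal cultures 10 of the 21 integrin chains were lower than the mean of the others and 0 were higher. Over the 53 genes 16 were lower in neurons (30.2%, against 15.5% of all genes) and 5 higher (9.43%, against 13.1%). Of the 16, Itga1 and Lama5 had their lowest mean in another culture and were dim in oligodendrocyte and microglial cultures too. Itgal, Itgax and Itgb3 were dim in astrocyte cultures as well, and Lamb2 in oligodendrocyte ones. Itgal averaged 4.76 in neuronal and 4.87 in astrocyte cultures. The Lama5 call was lost in several settings, such as after quantile normalization, with array weights and without neuron replicate 1. The median difference of neurons from the mean of the others was -0.37 over the 53 genes and -0.10 over all genes. Itgb1, Itgb2, Itga6, Itgav and the non-integrin Itgb3bp were lower in neurons than in each other culture, 5 of the 53 genes where 6.91% of all genes were.

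Itgb1 read 7.40, 7.25, 7.80 and 8.16 in neuronal cultures. Itgb1 stood at 10.69, 10.69, 10.80 and 11.45 in astrocyte, 10.49, 10.36, 10.51 and 10.55 in oligodendrocyte and 10.57, 10.42, 10.22 and 10.73 in microglial cultures. Every neuronal array was below every glial and microglial one, 7.84-fold on average (-2.97 ± 0.16, adjusted p = 5.25e-10). Among the other 3 cultures the differences were small: the astrocyte minus oligodendrocyte difference was 0.43 ± 0.20, adjusted p = 0.115, and the oligodendrocyte minus microglia difference -0.01 ± 0.20, adjusted p = 0.983. A second probe set of Itgb1 gave the same order of neurons below the rest, at 6.43 against 9.41 to 10.04.

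Itga6, a laminin receptor chain that pairs with Itgb1 or Itgb4, read 5.47, 5.26, 6.13 and 5.62 in neuronal cultures. Itga6 stood at 9.31, 8.78, 8.96 and 8.98 in astrocyte, 8.10, 7.68, 5.46 and 6.77 in oligodendrocyte and 9.71, 10.29, 10.21 and 9.74 in microglial cultures. Microglia and astrocytes were high, oligodendrocyte arrays were spread, with replicate 3 within the neuronal range and the other 3 above it, and neurons were low (-3.05 ± 0.34, adjusted p = 1.35e-06). Microglia exceeded astrocytes by less than the test could call (astrocyte minus microglia -0.98 ± 0.41, adjusted p = 0.0731). Itgav, whose dimers bind vitronectin, osteopontin and fibronectin, read 5.58, 5.05, 5.72 and 5.73 in neuronal cultures. Itgav stood at 7.41, 7.43, 7.59 and 8.76 in astrocyte, 8.12, 8.37, 7.55 and 8.08 in oligodendrocyte and 8.45, 8.25, 7.93 and 7.91 in microglial cultures. All neuronal arrays were below all others (-2.47 ± 0.22, adjusted p = 1.53e-07), and none of the 3 differences among the other cultures passed the test. Without astrocyte replicate 4 Itgav was lower in astrocytes than in microglia (-0.66 ± 0.20, adjusted p = 0.0178) and oligodendrocytes (-0.55 ± 0.20, adjusted p = 0.0462), both below the minimum difference. Which of them was highest depended on the probe set: 2 other Itgav probe sets peaked in astrocytes.

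Itgb5, which pairs with Itgav as a vitronectin receptor, was high in astrocytes and microglia and low in the other cultures. It read 10.31, 10.17, 10.56 and 10.41 in microglial cultures. Itgb5 stood at 5.55, 6.54, 7.35 and 7.03 in neuronal, 9.60, 9.71, 9.81 and 10.79 in astrocyte and 7.72, 7.46, 7.06 and 7.54 in oligodendrocyte cultures. Microglia stood above the mean of the others (2.35 ± 0.27, adjusted p = 3.9e-06), as did astrocytes (1.84 ± 0.27, adjusted p = 4.52e-05), and their own difference did not pass (astrocyte minus microglia -0.39 ± 0.33, adjusted p = 0.378). Among neuronal arrays, replicate 1 was lowest. Itgb3, another partner of Itgav, was low throughout: 5.28 ± 0.44 in microglial cultures and 4.87 ± 0.58 in oligodendrocyte ones, with astrocytes at 3.67 and neurons at 3.56 (1.24 ± 0.21, adjusted p = 0.000178 for microglia against the mean of the others). Itgb3bp, the centromere protein, read 6.90, 6.90, 6.75 and 6.84 in neuronal cultures. Itgb3bp stood at 8.05, 8.41, 8.30 and 8.01 in astrocyte, 8.21, 7.92, 8.05 and 8.13 in oligodendrocyte and 8.54, 8.59, 7.69 and 8.01 in microglial cultures. Its neuronal arrays lay below all others (-1.31 ± 0.14, adjusted p = 7.71e-07).

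Of the integrin chains, 3 were higher in astrocytes than in each other culture: Itga1, Itga7 and Itgb4. Itga7, a laminin receptor chain best known from muscle, read 8.42, 8.99, 8.91 and 8.36 in astrocyte cultures. Itga7 stood at 5.43, 5.31, 5.61 and 5.89 in neuronal, 6.19, 6.52, 5.41 and 6.03 in oligodendrocyte and 6.29, 5.87, 6.10 and 6.17 in microglial cultures. It was 6.82-fold higher in astrocytes than in the mean of the others (2.77 ± 0.17, adjusted p = 8.44e-09), with no overlap. Itga1, a collagen and laminin receptor chain, read 7.84, 8.47, 8.25 and 10.71 in astrocyte cultures. Itga1 stood at 4.82, 4.49, 4.90 and 4.77 in neuronal, 4.68, 4.66, 4.57 and 5.34 in oligodendrocyte and 4.28, 4.36, 4.83 and 4.66 in microglial cultures. The groups did not overlap and the difference was 4.12 ± 0.36, adjusted p = 2.35e-07; without astrocyte replicate 4, its highest array, it was 3.49 ± 0.17 (adjusted p = 9.02e-10). Itga5, the fibronectin receptor chain, was called by the F test but above no mean of the others: it averaged 6.54 ± 0.93 in astrocyte, 5.96 in microglial, 5.83 in oligodendrocyte and 5.20 in neuronal cultures. That call was lost without astrocyte replicate 2 or 4 and without neuron replicate 1.

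Itgb4, the hemidesmosomal partner of Itga6, split the astrocyte group. It read 9.84, 9.27, 9.32 and 4.54 in astrocyte cultures. Itgb4 stood at 4.15, 4.38, 4.38 and 4.24 in neuronal, 4.33, 4.13, 4.35 and 4.22 in oligodendrocyte and 4.58, 4.43, 4.61 and 4.44 in microglial cultures. The first 3 astrocyte cultures had it far above any other array, and replicate 4 did not. The difference against the other cultures was 3.89 ± 0.65, adjusted p = 0.000162 with all arrays and 5.13 ± 0.11 (adjusted p = 2.59e-13) without replicate 4. Itga11, a collagen receptor chain of mesenchymal cells, did the reverse. It read 3.53, 3.55, 3.99 and 9.55 in astrocyte cultures. Itga11 stood at 3.33, 3.31, 3.88 and 3.60 in neuronal, 3.42, 3.26, 3.43 and 3.58 in oligodendrocyte and 3.30, 3.29, 3.55 and 3.36 in microglial cultures. It was dim on every array but that of replicate 4, and its F test did not pass (adjusted p = 0.266).

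Astrocyte replicate 4 differed over the whole set. Relative to the mean of the other 3 astrocyte arrays, 14 of the 53 genes were more than 1 log2 unit higher in it: Itga1, Itga5, Itga8, Itga11, Itgav, Itgb5, Lama4, Lamb1, Lamc1, Nid1, Nid2, Nid2-ps16, Cdh10 and Cdh11. Another 4 were lower by as much: Itgb4, Lama3, Itga2b and Cdh13. These made up 34.0% of the adhesion genes, against 9.85% of all genes. On no other array did more than 17.0% of the 53 genes depart by that much; astrocyte replicate 1, also compared with a mean that holds replicate 4, had the 17.0%. Of the 7 fibroblast and meningeal genes, the 3 collagens were higher on that array: Col1a1 (13.01 against 6.78 to 7.72), Col1a2 (13.11 against 7.92 to 8.24) and Col3a1 (12.56 against 7.57 to 7.66). The other 4 lay in or next to the range of the other astrocyte arrays: Dcn read 3.52 against 3.31 to 3.51, Lum 3.13 against 3.13 to 3.22, Ogn 10.04 against 9.96 to 10.14 and Pdgfra 5.98 against 5.25 to 6.27. The astrocyte list was lower on it (10.64 against 11.48 to 11.96). The part of these in the differences was not tested.

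Itgb2, the leukocyte β chain, separated microglial and oligodendrocyte cultures from the rest. It read 9.87, 10.38, 10.51 and 10.88 in microglial cultures. Itgb2 stood at 4.25, 4.51, 4.81 and 4.62 in neuronal, 5.12, 6.63, 6.61 and 5.20 in astrocyte and 10.03, 10.30, 10.80 and 10.09 in oligodendrocyte cultures. The oligodendrocyte and microglial arrays overlapped (oligodendrocyte minus microglia -0.10 ± 0.33, adjusted p = 0.857), and the gene was at least 58.1-fold lower in neurons than in microglia (-5.86 ± 0.33, adjusted p = 8.73e-10). Within the astrocyte group, replicates 2 and 3 were higher than 1 and 4, and so was the microglial and macrophage list, at 5.97 and 6.10 against 4.76 and 4.56; its part was not tested.

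Of the α chains that pair with Itgb2, Itgal and Itgax were called and Itgad was not; values on each array are given for the called ones, chosen after their values were seen. Itgad averaged 5.07 in microglial, 4.82 in oligodendrocyte, 4.89 in astrocyte and 4.92 in neuronal cultures (F test adjusted p = 0.42). Itgal, which with Itgb2 binds ICAM proteins, read 9.28, 10.21, 10.66 and 11.63 in microglial cultures. Itgal stood at 4.70, 4.59, 4.96 and 4.81 in neuronal, 4.71, 5.29, 5.27 and 4.21 in astrocyte and 10.27, 10.71, 11.97 and 10.18 in oligodendrocyte cultures. Microglial and oligodendrocyte arrays overlapped (oligodendrocyte minus microglia 0.34 ± 0.44, adjusted p = 0.616), and neuronal and astrocyte arrays lay far below them. Itgax, a complement receptor chain of macrophages and dendritic cells, read 9.0, 6.77, 6.62 and 10.30 in microglial cultures. Itgax stood at 4.10, 4.03, 4.01 and 3.86 in neuronal, 4.01, 4.63, 4.85 and 4.19 in astrocyte and 8.79, 8.68, 9.28 and 8.84 in oligodendrocyte cultures. Microglial arrays were spread (SD 1.79), and all 4 oligodendrocyte arrays fell within their range. The oligodendrocyte minus microglia difference was 0.72 ± 0.59, adjusted p = 0.397, and 1.43 ± 0.43 (adjusted p = 0.0271) without microglia replicate 4. Itgam, a partner that the rule left out, averaged 7.73 ± 0.82 in microglial, 7.20 ± 1.15 in oligodendrocyte, 5.43 in astrocyte and 5.44 in neuronal cultures. The microglial and macrophage markers, as a list, were lower in oligodendrocyte cultures (8.75 ± 0.56) than in microglial ones (10.78 ± 0.36), with Csf1r at 9.25 to 10.67 against 11.84 to 12.32; whether cells of that type carried the integrin signal was not tested.

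Over the 53 genes, 7 were higher in microglia than the mean of the others (13.2%, against 8.74% of all genes) and 12 lower (22.6%, against 11.2%). The 7 were Itga6, Itgal, Itgav, Itgax, Itgb2, Itgb3 and Itgb5, all integrin chains, and the 12 were 5 cadherins, 4 laminin chains, Nid1, Nid2-ps16 and Itga1. Among the 12, Itga1 and Lama5 were dim in neuronal and oligodendrocyte cultures as well. Lama5, Lamb1, Lamb2, Lamc1 and Cdh10 had their lowest mean in a culture other than microglia. Lamb2 averaged 5.29 in microglial, 4.61 in neuronal and 4.90 in oligodendrocyte cultures. Cdh10 averaged 5.74 in microglial and 4.74 in astrocyte cultures. Of the 53, 0 were higher in microglia than in each other culture, where 3.65% of all genes were. At unadjusted p under 0.05 the last count by limma was also 0 with the minimum difference and 1, Itga6, without it; with array weights it was 1, again Itga6. In oligodendrocytes 6, Cdh11, Cdh20, Itgal, Itgax, Itgb2 and Lama4, were higher than the mean of the others (11.3%, against 6.77%) and 7 lower (13.2%, against 6.06%). Without oligodendrocyte replicate 3 the 7 became 4, as Itga1, Itga6 and Lamb1 were lost.

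**Figure D3:**
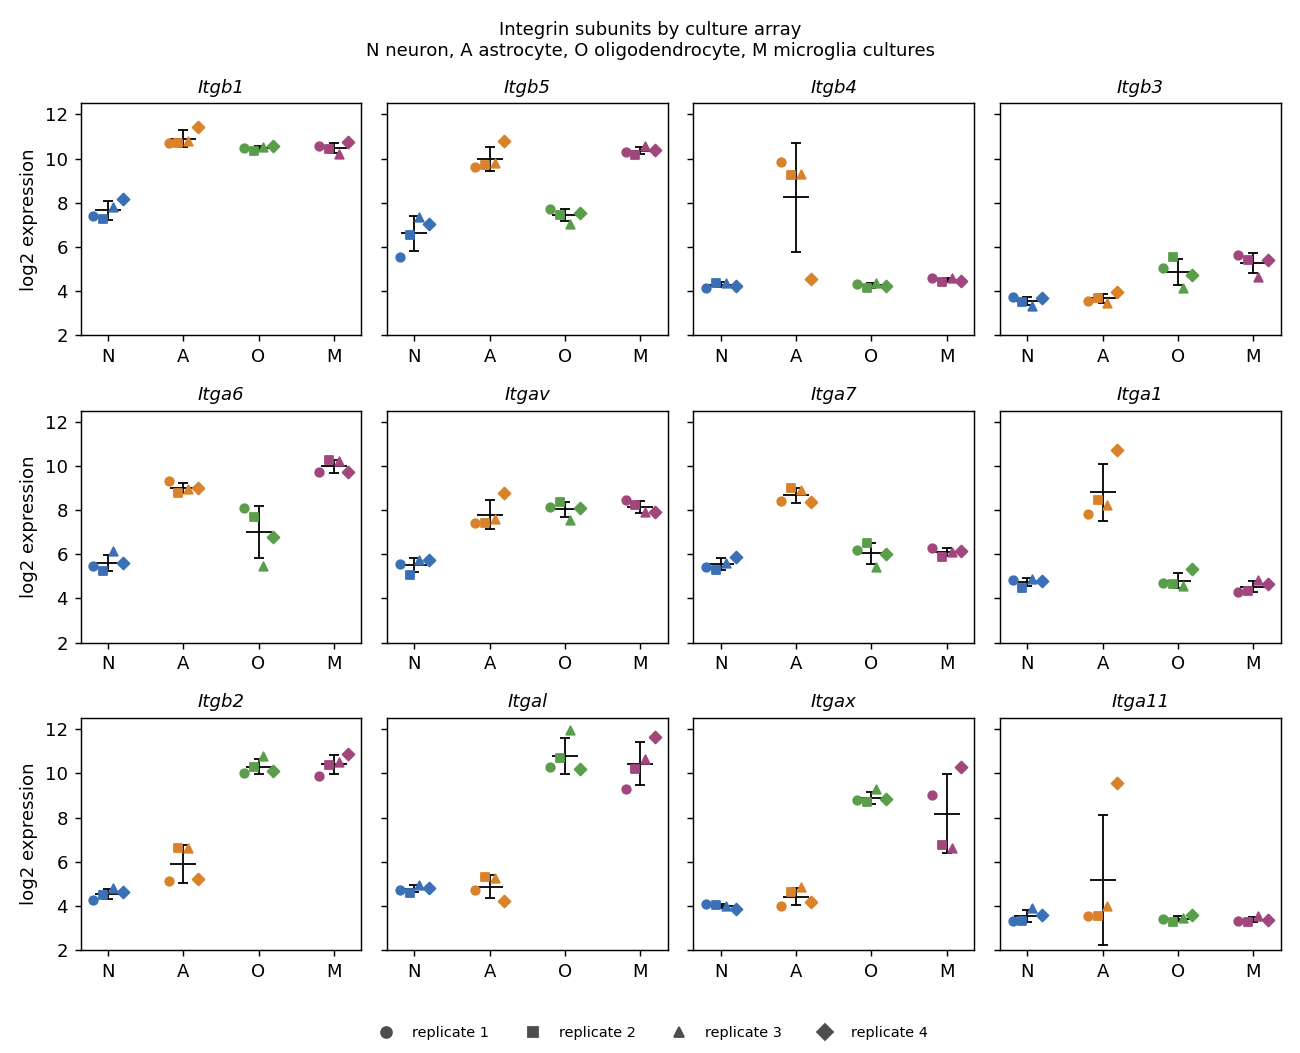
Log2 expression (vertical axis) of integrin subunits on each of the 16 culture arrays; points are arrays, with a marker shape for each replicate number, and bars show the mean and SD of 4. Itgb1 and Itgav are low in neuronal cultures, Itgb2 and Itgal are high in oligodendrocyte and microglial cultures alike, and Itgb4 and Itga11 set astrocyte replicate 4 apart in opposite directions.

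In neuronal cultures 4 of the 16 cadherins, Cdh7, Cdh10, Cdh12 and Cdh13, were higher than in each other culture. With Lamb1 this made 5 of the 53 genes (9.43%, against 8.22% of all genes), a share close to that of all genes. Cdh7, Cdh10 and Cdh12 are type II cadherins of neurons. Cdh13 is an unusual cadherin held by a lipid anchor, with no cytoplasmic tail.

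Cdh13 read 11.03, 11.03, 10.36 and 10.49 in neuronal cultures. Cdh13 stood at 6.93, 8.07, 7.87 and 6.60 in astrocyte, 9.06, 8.75, 8.98 and 8.90 in oligodendrocyte and 7.67, 7.08, 6.24 and 6.05 in microglial cultures. Neuronal arrays lay above all others (3.04 ± 0.29, adjusted p = 2.67e-07), oligodendrocyte arrays came next, and 2 further Cdh13 probe sets gave the same leading culture. Cdh10 read 9.22, 9.16, 8.54 and 8.69 in neuronal cultures. Cdh10 stood at 4.99, 3.95, 4.29 and 5.74 in astrocyte, 7.05, 6.90, 7.97 and 6.82 in oligodendrocyte and 6.30, 6.01, 5.77 and 4.86 in microglial cultures. Its order was neurons, oligodendrocytes and then the other two, and it was 8.09-fold above the mean of the other 3 cultures in neurons (3.02 ± 0.31, adjusted p = 6.67e-07).

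Cdh12 read 6.32, 6.10, 5.37 and 5.78 in neuronal cultures. Cdh12 stood at 3.09, 2.97, 3.07 and 3.0 in astrocyte, 3.09, 3.20, 3.41 and 3.08 in oligodendrocyte and 2.98, 2.96, 3.19 and 3.19 in microglial cultures. All non-neuronal arrays were dim, so the 6.91-fold difference is a lower bound (2.79 ± 0.13, adjusted p = 7.74e-11). Cdh7 read 7.41, 7.02, 6.26 and 6.37 in neuronal cultures. Cdh7 stood at 3.89, 3.69, 3.76 and 3.74 in astrocyte, 3.42, 3.47, 3.89 and 3.95 in oligodendrocyte and 4.24, 3.72, 4.09 and 3.89 in microglial cultures. It behaved in the same way (2.95 ± 0.18, adjusted p = 1.53e-09). For all 4 cadherins both of neuron replicates 1 and 2 exceeded both of replicates 3 and 4. The astrocyte list was lower in the first pair of neuronal arrays (7.55 and 8.57) than in the second (10.05 and 9.75), and its part was not tested.

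Cdh2, N-cadherin, the classical cadherin of neural tissue, was highest in astrocytes. It read 10.45, 10.43, 10.40 and 10.31 in astrocyte cultures. Cdh2 stood at 9.20, 8.77, 8.91 and 8.92 in neuronal, 8.96, 8.36, 8.62 and 8.61 in oligodendrocyte and 7.96, 7.09, 6.50 and 6.67 in microglial cultures. Astrocyte arrays were above all others (2.18 ± 0.19, adjusted p = 2.88e-07) and microglial arrays below all others (-2.27 ± 0.19, adjusted p = 2.1e-07), while neurons and oligodendrocytes did not differ by the test (0.31 ± 0.24, adjusted p = 0.347). Among microglial arrays, replicate 1 was highest. Cdh11, a type II cadherin also of mesenchyme, read 6.46, 6.47, 5.21 and 5.62 in microglial cultures. Cdh11 stood at 8.36, 8.79, 7.58 and 7.79 in neuronal, 7.08, 6.34, 6.65 and 8.65 in astrocyte and 8.81, 8.29, 8.51 and 9.50 in oligodendrocyte cultures. Microglia were lower (-2.09 ± 0.37, adjusted p = 0.000294) and oligodendrocytes higher (1.70 ± 0.37, adjusted p = 0.00251) than the mean of the others, while neuronal, astrocyte and oligodendrocyte ranges overlapped and astrocyte replicate 2 lay below the highest microglial arrays. A second Cdh11 probe set peaked in neurons but was dim in every culture (4.88 in neuronal, 3.61 to 4.41 in the others). The remaining Cdh11 probe set (5.54 to 5.91) was not called by the F test. Nid1, Cdh2 and Cdh11 were lower in microglia than in each other culture, 3 of the 53 genes where 1.79% of all genes were. For Cdh11 the astrocyte minus microglia difference was 1.24 ± 0.46, adjusted p = 0.0423. Without astrocyte replicate 4 that difference was 0.75 ± 0.37 (adjusted p = 0.119) and missed both the test and the minimum of 1.

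Cdh20 was the 1 gene of the 53 (1.89%, against 1.7% of all genes) higher in oligodendrocytes than in each other culture. It read 7.37, 7.20, 7.33 and 7.32 in oligodendrocyte cultures. Cdh20 stood at 4.93, 5.01, 5.40 and 5.40 in neuronal, 5.35, 4.87, 4.85 and 5.64 in astrocyte and 6.34, 6.07, 5.36 and 5.42 in microglial cultures. The oligodendrocyte arrays were tightly grouped and above all others (1.92 ± 0.18, adjusted p = 1.62e-06). Without microglia replicate 1 Lama4 joined it, and without microglia replicate 4 Itgax did, making 2 in each case.

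Cdh22, a brain cadherin, depended on the probe set. The brighter one averaged 7.78 ± 0.25 in astrocyte, 7.27 ± 0.15 in neuronal, 6.47 ± 0.19 in oligodendrocyte and 6.01 ± 0.40 in microglial cultures. The other averaged 10.16 ± 0.15 in neuronal cultures, against 4.03 ± 0.32 in astrocyte, 4.30 ± 0.26 in oligodendrocyte and 3.85 ± 0.29 in microglial ones, a neuron difference of 6.10 ± 0.14 (adjusted p = 7.96e-14, at least 68.8-fold). That probe set was dimmer on average over the 26 arrays and so was not the one that stood for the gene. Of the 16 called genes with several probe sets, 7 had another called with the same leading culture and 5 had one called with a different leading culture (Cdh11, Cdh22, Itgav, Itgb3bp and Itgb5). For 4, Itga8, Lama4, Lama5 and Nid1, no other probe set was called. Cdh6, the last called cadherin, averaged 5.59 ± 0.25 in astrocyte and 4.29 ± 0.23 in microglial cultures (astrocyte minus microglia 1.30 ± 0.26, adjusted p = 0.000928). Itga8 averaged 5.81 ± 0.25 in microglial and 4.70 ± 1.00 in astrocyte cultures; its F test call was lost without astrocyte replicate 3 or microglia replicate 1 or 2.

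**Figure D4:**
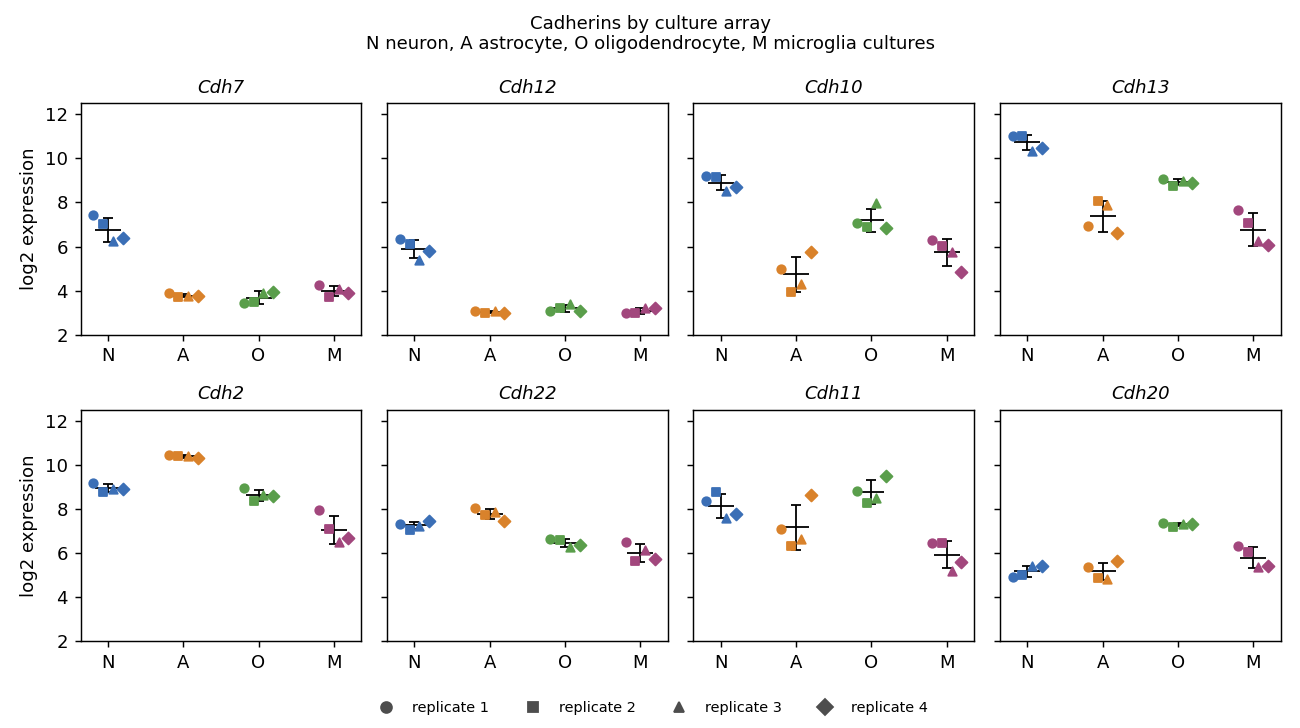
Log2 expression (vertical axis) of cadherins on each of the 16 culture arrays; points are arrays, with a marker shape for each replicate number, and bars show the mean and SD of 4. Cdh7, Cdh12, Cdh10 and Cdh13 are highest in neuronal cultures, Cdh2 in astrocyte and Cdh20 in oligodendrocyte cultures; Cdh22 is shown by its brighter probe set.

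Some of these genes lie side by side in the rat genome (GRCr8 order). Cdh10 and Cdh12, both highest in neurons, are neighbours with 0 protein-coding genes between them. Itgam, Itgax and Itgad are also adjacent, yet Itgad was not called (adjusted p = 0.42 by F test), with a mean of 5.07 in microglia, while Itgax was. Cdh1 and Cdh3 are adjacent and both were dim in every culture.

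Genes that work with integrins and cadherins were taken from a list of 46 adaptors, catenins, ligands and membrane partners, of which 44 were measured. By the F test 38 differed (86.4%), against 48.1% of all genes. In neurons 22 were lower than the mean of the others (50%, against 15.5% of all genes) and 4 higher (9.09%, against 13.1%). In astrocytes 22 were higher (50%, against 11.6%) and 4 lower (9.09%, against 8.82%). Fibronectin, Fn1, averaged 12.03 ± 0.37 in astrocyte cultures against 6.41 in neuronal, 6.48 in oligodendrocyte and 6.10 in microglial ones (5.70 ± 0.35, adjusted p = 6.18e-09). Tenascin C, Tnc (4.57 ± 0.50, adjusted p = 2.93e-06), and the integrin ligand Vcam1 (3.53 ± 0.42, adjusted p = 6.76e-06) were also higher in astrocytes.

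In neurons the tetraspanin Cd9 (-5.28 ± 0.33, adjusted p = 2.42e-09), osteopontin Spp1 (-4.47 ± 0.53, adjusted p = 3.42e-06) and the tensin Tns3 (-4.03 ± 0.26, adjusted p = 3.13e-09) were the lowest relative to the other cultures. The neuronal catenins Ctnna2 (3.0 ± 0.24, adjusted p = 3.86e-08) and Ctnnd2 (1.78 ± 0.18, adjusted p = 6.58e-07) were higher there. So was plakoglobin, Jup (1.71 ± 0.25, adjusted p = 2.85e-05), but its neuron minus astrocyte difference did not pass (0.44 ± 0.31, adjusted p = 0.286). Other catenins, Ctnna1 (-2.76 ± 0.18, adjusted p = 2.87e-09) and Ctnnd1 (-1.03 ± 0.10, adjusted p = 4.12e-07), were lower in neurons. Ctnnb1 was not called by the F test. Catenins link cadherins to the cytoskeleton.

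In microglia 9 partners were higher (20.5%, against 8.74% of all genes) and 13 lower (29.5%, against 11.2%). The blood cell kindlin Fermt3, which activates integrins, averaged 9.51 ± 0.24 in microglial cultures and 8.05 ± 0.44 in oligodendrocyte ones; astrocytes were at 4.23 and neurons at 3.88 (4.12 ± 0.19, adjusted p = 4.13e-10). It was higher in microglia than in oligodendrocytes (oligodendrocyte minus microglia -1.46 ± 0.23, adjusted p = 0.000254). Spp1 (3.98 ± 0.53, adjusted p = 2.15e-05) and the parvin Parvg (2.66 ± 0.22, adjusted p = 1.37e-07) were also higher. Vcam1 (-3.86 ± 0.42, adjusted p = 2.79e-06), Ctnna2 (-2.44 ± 0.24, adjusted p = 9.51e-07) and vinculin, Vcl (-2.35 ± 0.25, adjusted p = 1.67e-06), were lower. In oligodendrocytes 5 were higher (11.4%, against 6.77% of all genes) and 1 lower (2.27%, against 6.06%). The higher ones were led by Cd9 (2.32 ± 0.33, adjusted p = 7.58e-05), Tns3 (2.18 ± 0.26, adjusted p = 1.4e-05) and Fermt3 (2.17 ± 0.19, adjusted p = 7.55e-07), and the lower one was Fn1 (-1.70 ± 0.35, adjusted p = 0.00159).

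Genes whose pattern over the 16 culture arrays was most like that of 3 of the members are given as a description; the arrays share 4 cultures and are not independent points. For Itgb1 they were Nuf2 (Pearson r 0.989), Cnih4 (0.988) and Ect2 (0.985). For Lamb2 they were Bcar3 (0.991), Shroom3 (0.990) and Flnc (0.987). For Cdh2 they were Dmpk (0.979), Gstm5 (0.975) and Fhl1 (0.972).

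In the mixtures each expected value is the fraction-weighted sum of the linear values of the parent arrays that the labels name, on the log2 scale. Measured minus expected had a median of -0.17 over the 53 genes and 10 arrays, against -0.12 for all genes, and 89.4% of the values lay within 0.5 of the expectation, against 94.6% for all genes. For Lamb2 in replicate 1 the mixtures with neuronal RNA at fractions of 0.25, 0.5 and 0.75 measured 9.76, 9.20 and 7.87, where 9.78, 9.21 and 8.26 were expected. The value was lower the less astrocyte RNA was present.

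Mixture replicate 1 was made with astrocyte replicate 1 and mixture replicate 2 with astrocyte replicate 4, and the difference between these parents reappeared. Itga11 measured 8.70, 7.82 and 6.67 in replicate 2 of the 3 neuron and astrocyte mixtures, but 3.5, 3.62 and 3.69 in replicate 1. Itgb4 measured 4.13, 4.23 and 4.18 in replicate 2, but 9.03, 8.75 and 6.88 in replicate 1. The departure of astrocyte replicate 4 for these genes was thus present on separate arrays that carried RNA of the same culture. Leukocyte integrins were higher where oligodendrocyte RNA replaced part of the astrocyte RNA. Itgb2 measured 7.94 and 7.87 with oligodendrocyte RNA at 0.25, against 4.67 and 4.31 in the mixtures of neuron and astrocyte RNA at 0.5 each. Itgal measured 8.38 and 8.06, against 4.66 and 4.44. The largest shortfalls from expectation were for Itga11 in replicate 2 of the mixture of all 4 RNAs (-1.71) and of the mixture of 3 (-1.19).

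**Figure D5:**
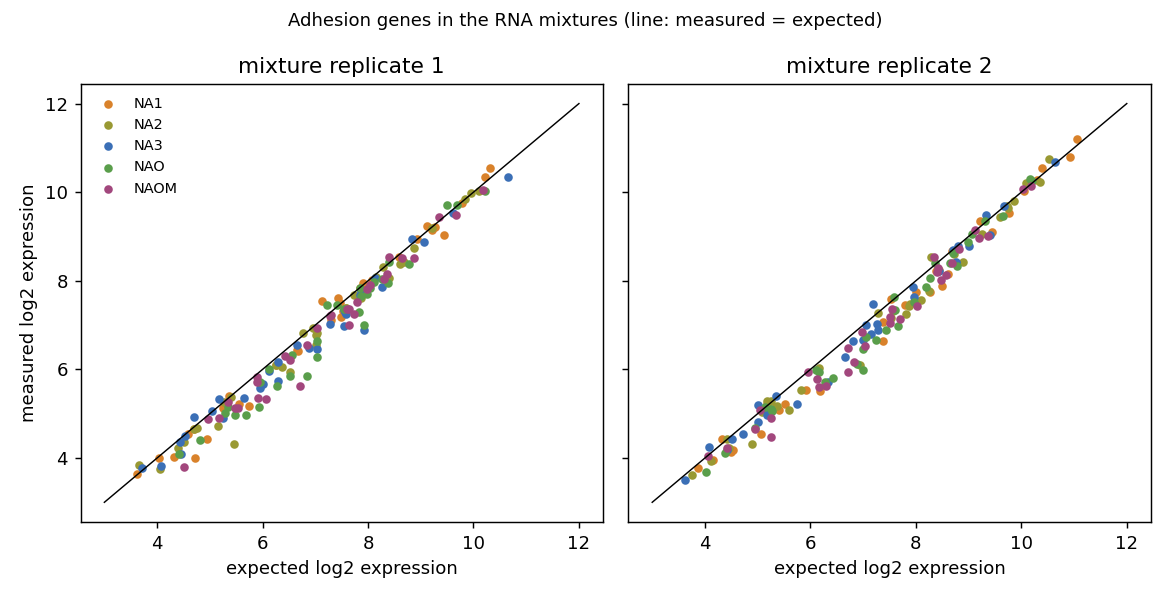
Measured (vertical axis) against expected (horizontal axis) log2 expression of the 32 genes that differed between cultures, in mixture replicates 1 and 2; each point is a gene in a mixture, colours show the mixture and the line marks equality. NA1, NA2 and NA3 hold neuronal RNA at 0.25, 0.5 and 0.75 with astrocyte RNA; NAO adds oligodendrocyte and NAOM also microglial RNA. Most points lie on or slightly below the line, with the shortfall clearest at low and middle levels.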

How the data were processed

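Gene expression was measured on 26 Affymetrix arrays with biotin-labelled RNA, 16 of cultures and 10 of mixtures. The deposited values are log2 expression values per probe set that the authors made with RMA in the affy package, per the submitters' processing notes; versions are not given in the sources used here. Values between 2.57 and 14.36 were used as deposited. Excluding 57 control probe sets, all 31042 entered the tests, dim ones included. A single gene symbol was listed for 20826, several for 436 and none for 9780. The 53 genes had 81 probe sets, and 1 probe set with several symbols was left out.

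The linear model, in limma 3.58.1 under R 4.3.3, gave each culture 1 mean, and eBayes moderated the variances. Adjusted p-values follow Benjamini-Hochberg across all 31042 for each contrast. Differences are log2 with their standard error. A call needed an adjusted p under 0.05 and a difference of at least 1. The biological replicates are those of the labels, which say no more about their independence; the number of arrays limits the precision. Values in every array are given for genes that a rule picked: up to 6 per culture furthest above each other culture, up to 4 lower than each, the 6 brightest and the 4 most variable. Itgal and Itgax are given in the same way outside the rule, chosen after their values were seen. Every other gene of the set could be named by its means. Members, lists and the rule were chosen with earlier results of these data known. The labels do not say whether same-numbered cultures share a source, and the main fit does not pair them. Same-numbered residuals of different cultures correlated at -0.107 to 0.178 over 24 pairs, with 5 above 0.1, which cannot settle it. The fit was tested on simulated data. Alternatives were other normalizations, a filter on dim probe sets, no minimum difference, another variance model, array weights, a replicate block, the mean of all probe sets of a gene and leaving out each array. Python 3.11.15, pandas 2.3.3, numpy 2.4.6 and matplotlib 3.10.9 were used for the other steps.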

Additional observations from a re-analysis of the deposited data

Results flagged for a closer look

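In 14 of 212 groups of 4 arrays 1 array stood apart from the other 3 by Dixon's 95% criterion, which chance meets in about 1 of 20 groups. Of these, 9 were astrocyte replicate 4. That array was higher for Itga11 (9.55, against 3.53 to 3.99 in the other astrocyte arrays), Nid2 (11.34, against 6.42 to 6.89), Lamb1 (8.71, against 4.40 to 4.95), Itgav (8.76, against 7.41 to 7.59), Nid2-ps16 (8.62, against 7.53 to 7.63) and Itgb1 (11.45, against 10.69 to 10.80). It was lower for Itgb4 (4.54, against 9.27 to 9.84), Lama3 (5.47, against 7.0 to 7.31) and Itga2b (5.36, against 6.31 to 6.44). The remaining 5 spanned less than 1 log2 unit. Itga1 read 5.34 in oligodendrocyte replicate 4, against 4.57 to 4.68, and Lama3 read 4.93 in oligodendrocyte replicate 2, against 4.50 to 4.54. In neurons Itga2b read 4.90 in replicate 1, against 5.20 to 5.25, and Nid2l2 read 4.93 in replicate 2, against 4.59 to 4.64. Cdh23 read 4.17 in microglia replicate 3, against 4.29 to 4.31.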

How the results depend on the processing

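Of 1319 values of the 53 genes under the alternatives, 1278 kept their direction and their side of the threshold, 27 newly passed it, 9 no longer passed it and 5 changed sign. The sign changes were Cdh16 in microglia (-0.04 after quantile normalization), Cdh22 in astrocytes (-0.44 with the mean of all its probe sets), Lama1 in astrocytes (-0.06 without astrocyte replicate 4, and up to 0.22 on leaving out any other array) and, with astrocyte replicate 4 and microglia replicate 4 both left out, Lama1 (-0.08) and Lamc3 (-0.01) in astrocytes; that last alternative was chosen after seeing the data. With it, 2 genes, Cdh20 and Itgax, were higher in oligodendrocytes than in each other culture. With no minimum difference the counts higher than the mean of the others were 8 in neurons, 11 in oligodendrocytes and 14 in microglia, and 12 were lower in oligodendrocytes. With array weights 1 gene, Itga6, was higher in microglia than in each other culture. Leaving out 1 array gave 30 to 33 genes that differed, and, against the mean of the others, 5 to 5 higher and 15 to 17 lower in neurons, 14 to 16 higher and 5 to 10 lower in astrocytes, 6 to 8 higher and 4 to 8 lower in oligodendrocytes, and 6 to 8 higher and 11 to 13 lower in microglia. The counts higher than in each other culture were then 4 to 5 in neurons, 9 to 10 in astrocytes, 1 to 2 in oligodendrocytes and 0 to 0 in microglia. With the replicate block 32 genes differed and 7, with Nid2 added, were higher in oligodendrocytes than the mean of the others; the other counts were as without it, and the shared number is no known pairing. The cause of these changes was not tested. Dim genes limit the comparison: 18 of the 53 had no culture mean of 5.25 or more, and their differences cannot be read as absence of expression. Where probe sets of a gene disagree (Nid1, Cdh11, Cdh22), the choice of probe set sets the result, although the Cdh11 probe set that peaked in neurons was dim.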
